A study of Mus musculus with 23 samples.

Results

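The genes described here are 10 rapid response genes of mouse colonic epithelium: the Polo-like kinases Plk2 and Plk3, the salt-inducible kinase Sik1, the nuclear proteins Csrnp1, Ier2 and Ier5, the survival regulator Ier3, the antiproliferative protein Btg2, the mRNA decay factor Zfp36 and the cytoskeleton-associated protein Arc. They were taken by symbol from a table of 24917 gene loci, and all 10 passed the filter on low counts in both batches of the study. They are kinases and regulators outside the Fos, Egr, Nr4a, Klf and Dusp families. Of the 10, the 8 other than Ier3 and Ier5 are on the study's list of genes that were lower in aged obese mice, and that list was called on the mice of batch 1. The contrasts among the batch 1 mice are therefore described here without a test, and the tests are those of batch 2. The sources do not say whether batch 2 samples come from other mice, so these tests may not be independent of that list.

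The study asked how obesity, and a return to a low-fat diet after it, alter gene expression in the colon. Male C57BL/6 mice (C57BL/6J in the study's methods), 6 weeks old at the start, were kept for 43 weeks on one of 3 regimens. LF mice received a diet with 10% fat for 43 weeks, HF mice received a diet with 60% fat for 43 weeks, and HFLF mice, which were formerly obese, had 15 weeks of the high-fat diet followed by 28 weeks of the low-fat diet. Batch 1 held 4 LF, 3 HF and 4 HFLF samples and batch 2 held 4 LF, 3 HF and 5 HFLF samples. All groups share the strain, the sex and the age at the start, the high-fat diet is based on lard, and RNA came from epithelium released with PBS and EDTA from the whole colon. The methods give fewer mice for each regimen than the samples of both batches add up to, so some of the 23 samples may not be mice of their own, and p-values measure the spread between samples.

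Rapid response genes are transcribed within minutes of a growth factor, hormone or stress stimulus, without new protein synthesis, and their mRNAs are short-lived. Their promoters are held ready by constitutive factors, among them CREB, which binds the cyclic AMP response element, and serum response factor, which binds the CArG box. In the intestine, genes of this kind are known to respond to growth factor, cyclic AMP and injury signals in crypt and surface cells.

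Between 29189922 and 46498521 counts per sample were assigned to genes in batch 1 and between 31607019 and 65320947 in batch 2. The 7 epithelial markers were abundant in every group, with a summed level of 9614 to 13150.5 CPM (read counts scaled to a common library size within each batch) over both batches, which goes with the tissue label. Every other marker list had counts as well, and no listed gene present in the table was at 0 in all samples. In a bulk sample, fewer cells of a type and less RNA per cell cannot be told apart.

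The promoters are shown as description, and their part in the levels of the genes was not tested. RefSeq (GRCm38.p6, the build called mm10 in the count table) gave promoter entries for 7 of the 10 genes, namely Plk2, Plk3, Csrnp1, Ier3, Ier5, Btg2 and Zfp36, and the 250 bases before each start were searched on both strands for TGACGTCA, the full cyclic AMP response element, for its shorter core TGACG, for the CArG box and for TATAA. The 200 bases before the start are printed 5′ to 3′ on the gene's strand, with matches in capitals. TGACGTCA contains TGACG on both strands, so a gene with the first also counts for the second. The lines give Plk2 (chr13:110394844-110395043, plus strand), Btg2 (chr1:134079156-134079355, minus strand), Plk3 (chr4:117133964-117134163, minus strand) and Zfp36 (chr7:28379229-28379428, minus strand), which were lower in HF mice of batch 2. Ier3 (chr17:35821513-35821712, plus strand) and Ier5 (chr1:155099637-155099836, minus strand), neither of which passed the test, follow. Csrnp1, which did not pass either, is not printed.
Plk2: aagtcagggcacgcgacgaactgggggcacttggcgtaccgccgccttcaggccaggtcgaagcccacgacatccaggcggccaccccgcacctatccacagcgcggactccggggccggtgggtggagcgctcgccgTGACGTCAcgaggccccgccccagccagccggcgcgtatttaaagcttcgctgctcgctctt
Btg2: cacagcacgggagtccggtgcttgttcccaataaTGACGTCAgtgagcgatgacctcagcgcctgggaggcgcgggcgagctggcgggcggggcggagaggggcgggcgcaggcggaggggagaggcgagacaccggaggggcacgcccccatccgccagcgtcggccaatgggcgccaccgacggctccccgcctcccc
Plk3: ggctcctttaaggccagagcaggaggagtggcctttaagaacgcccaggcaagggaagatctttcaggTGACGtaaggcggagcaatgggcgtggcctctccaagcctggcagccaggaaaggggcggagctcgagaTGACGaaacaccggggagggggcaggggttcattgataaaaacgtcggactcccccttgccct
Zfp36: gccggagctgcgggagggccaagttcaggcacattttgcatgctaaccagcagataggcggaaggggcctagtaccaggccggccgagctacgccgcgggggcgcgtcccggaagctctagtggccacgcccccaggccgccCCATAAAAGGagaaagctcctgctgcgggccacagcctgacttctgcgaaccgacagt
Ier3: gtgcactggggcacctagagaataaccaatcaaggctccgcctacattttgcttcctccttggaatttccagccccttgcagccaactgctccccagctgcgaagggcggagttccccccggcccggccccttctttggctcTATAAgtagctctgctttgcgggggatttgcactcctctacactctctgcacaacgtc
Ier5: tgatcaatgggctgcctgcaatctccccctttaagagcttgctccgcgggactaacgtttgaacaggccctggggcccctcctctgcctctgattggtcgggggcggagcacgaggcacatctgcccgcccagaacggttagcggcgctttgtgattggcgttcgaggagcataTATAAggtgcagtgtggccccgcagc

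TGACGTCA stood 62 to 55 bases before the start of Plk2 and 166 to 159 bases before that of Btg2, and 1.55% of all 32851 promoter windows of the same length held it. TGACG without the full element stood at 2 places in the Plk3 window and in each of the 4 windows of Csrnp1. Counted by gene, 4 of the 7 held the core in any window, and counted by window 17.8% of all windows held it. A gene with several windows has more chances to count, so these shares are not alike. The capitals in the Zfp36 line mark a CArG box, which 1.47% of all windows held. TATAA was found in the windows of Ier3 and Ier5 and in 22.8% of all windows. Csrnp1, with the core in each window, did not pass between HF and LF mice, and Sik1, Ier2 and Arc, which passed, had no promoter entry. The printed lines are therefore no comparison of called with other genes. These matches describe letters in a window and were not tested against expression.

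The 10 genes lie on 8 chromosomes, and compared per kilobase of merged exon their levels in LF mice of batch 2 spanned from 324 CPM per kb for Btg2 to 7.47 CPM per kb for Ier3. Below Btg2 came Ier2 at 259, Zfp36 at 135 and Plk3 at 42.2 CPM per kb, and the LF samples of each of these 4 genes lay apart from those of the next. Ier5 (15.9), Arc (14.9), Sik1 (11.7), Csrnp1 (11.4) and Plk2 (10.8 CPM per kb) formed a lower group in which each gene's samples overlapped those of its neighbour. In batch 1 the order began the same way, with Btg2 at 245 and Ier2 at 180 CPM per kb, while Zfp36 (66.6) and Plk3 (64.6 CPM per kb) overlapped. By level, without length, Btg2 stood at the 99.3 percentile and Ier3 at the 21.0 percentile of 12418 genes in batch 2. Exons of Plk3 overlap those of Tctex1d4, exons of Csrnp1 those of 1700019L13Rik and exons of Zfp36 those of Gm44710, each on the opposite strand. Because the strand setting of the counting is not given in the sources used here, reads of these pairs cannot be told apart.

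In batch 2, 7 of the 10 genes were called lower in HF than in LF mice. A gene was called where the adjusted p of edgeR's quasi-likelihood test, adjusted over the 14377 genes tested by the method of Benjamini and Hochberg, was under 0.05 and the fold change was over 1.2. By that rule 633 genes, or 4.4%, were called lower and 436, or 3.03%, higher. The called genes were Plk2, Plk3, Sik1, Ier2, Btg2, Arc and Zfp36, with falls between 22.3% for Btg2 and 54.1% for Arc. Of the 10, 9 had an unadjusted p under 0.05, as did 33.1% of all genes. Csrnp1 and Ier5 had negative log2 fold changes that did not pass, and Ier3 had a small positive one. The median log2 fold change of the 10 was -0.48, beside -0.013 over all genes tested. For 8 of the 10, all but Csrnp1 and Ier3, every HF sample lay below every LF sample, which was the case for 13.5% of all genes.

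All 3 kinases fell, Sik1 and Plk3 by the most of any gene after Arc. Plk2, a Polo-like kinase that responds to stress and is a target of p53 (Entrez 20620, chr13:110395044-110400843, plus strand), had 51.1, 52.5, 46 and 45 CPM in the LF samples of batch 2 and 34.4, 34 and 33.2 CPM in the HF samples. The groups were far apart, and the HF samples were almost equal. Plk2 changed by -0.52 on the log2 scale (standard error 0.083, adjusted p = 0.0106). Plk3, a Polo-like kinase of the DNA damage and stress response (Entrez 12795, chr4:117128655-117133952, minus strand), had 109, 109, 107 and 99.3 CPM in LF and 82.6, 63.8 and 54.9 CPM in HF samples. The LF samples lay close together and all HF samples were below them, replicate 1 the nearest. Its log2 fold change was -0.66 (standard error 0.11, adjusted p = 0.0142). Sik1, which phosphorylates the CRTC coactivators of CREB and class IIa histone deacetylases (Entrez 17691, chr17:31844250-31855792, minus strand), had 67, 68.8, 55.5 and 48.7 CPM in LF and 43.8, 33.5 and 26.4 CPM in HF samples. The groups did not overlap, with HF replicate 1 nearest to the LF range. The log2 fold change of Sik1 was -0.80 (standard error 0.17, adjusted p = 0.0259).

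Of the nuclear regulators, Ier2 passed and Csrnp1 and Ier5 did not. Ier2, a nuclear protein without introns in its gene (Entrez 15936, chr8:84661331-84662852, minus strand), had 398, 423, 359.6 and 398 CPM in LF and 324, 245 and 231 CPM in HF samples. All HF samples were lower, again with replicate 1 nearest to the LF range, and the log2 fold change was -0.57 (standard error 0.11, adjusted p = 0.0186). Csrnp1, a nuclear protein first described as induced by AXIN1 (Entrez 215418, chr9:119971166-119984658, minus strand), had 40.4, 48.7, 37.1 and 32.1 CPM in LF and 37.2, 29.1 and 21.8 CPM in HF samples. HF replicate 1 lay inside the LF range and the other two below it. The log2 fold change of -0.43 had a 95% interval of -0.81 to -0.055 and did not pass (adjusted p = 0.110 in edgeR's test). Ier5, which takes part in the heat shock response (Entrez 15939, chr1:155096367-155099636, minus strand), had 58.3, 50.4, 47.7 and 51.3 CPM in LF and 47.3, 42.6 and 37.8 CPM in HF samples. These groups were adjacent without overlap, and the log2 fold change of -0.29 (95% interval -0.52 to -0.052) did not pass (adjusted p = 0.0931). Ier3, a regulator of cell survival (Entrez 15937, chr17:35821713-35822911, plus strand), had 8.87, 8.31, 6.17 and 9.22 CPM in LF and 11, 9.08 and 6.47 CPM in HF samples, and these overlapped throughout. Its log2 fold change was 0.12 (95% interval -0.28 to 0.51, adjusted p = 0.684).

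Both regulators of mRNA fate fell. Btg2, which slows proliferation and binds the CCR4-NOT deadenylase (Entrez 12227, chr1:134074865-134079155, minus strand), had 835, 1056, 804 and 863 CPM in LF and 786, 662 and 623 CPM in HF samples. The highest HF sample stood just under the lowest LF sample, and the log2 fold change of -0.36 (standard error 0.11) passed narrowly (adjusted p = 0.0475). Zfp36, or tristetraprolin, which binds AU-rich elements and recruits the same deadenylase (Entrez 22695, chr7:28376784-28379228, minus strand), had 343, 364, 312 and 301 CPM in LF and 295, 231 and 224 CPM in HF samples. As for Btg2, HF replicate 1 was only slightly below the LF range. Zfp36 changed by -0.40 on the log2 scale (standard error 0.11, adjusted p = 0.0382). Arc, known best for its role at synapses (Entrez 11838, chr15:74669081-74672570, minus strand), had 57.5, 51.4, 32.2 and 40.6 CPM in LF and 32, 19.1 and 11.6 CPM in HF samples. The highest HF sample was almost level with the lowest LF sample, and the spread relative to the mean was the widest of the 10 genes in both groups. Arc changed by -1.12 on the log2 scale (standard error 0.28, adjusted p = 0.0363).

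**Figure D1:**
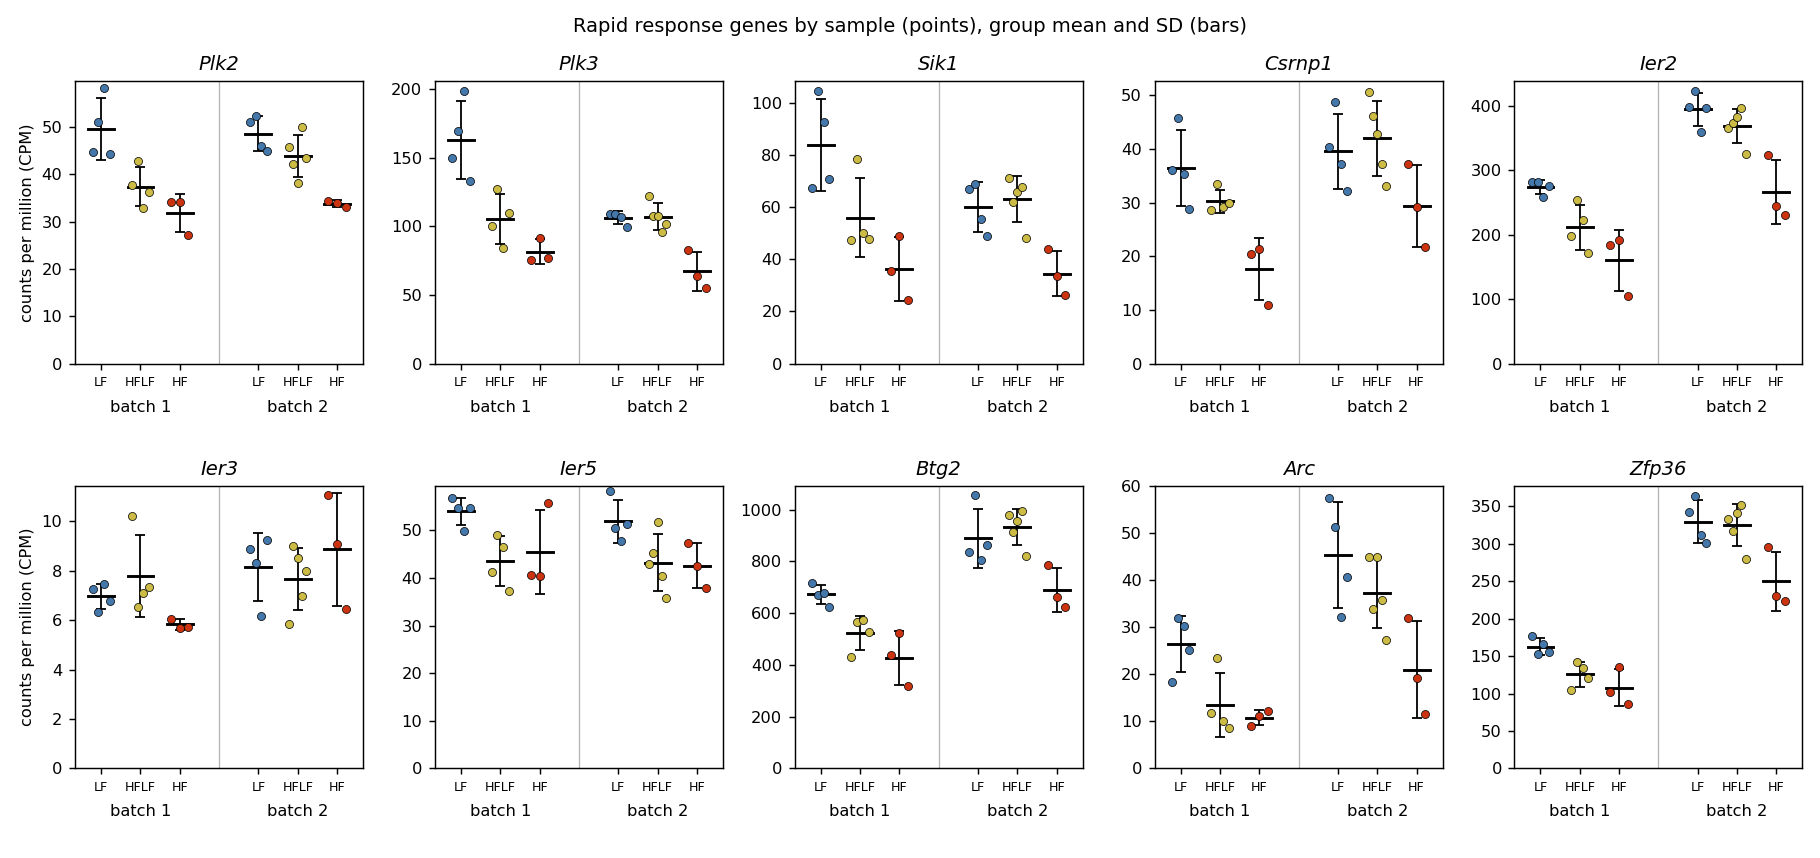
Each panel plots 1 gene in CPM (linear axis from 0), with 1 point per sample, grouped by diet (LF, HFLF, HF) within batch 1 and batch 2, a horizontal bar at the group mean and vertical bars for the SD. In batch 2 the HF points of Plk2, Plk3, Sik1, Ier2, Ier5, Btg2, Arc and Zfp36 lie below all LF points, and those of Ier3 overlap those of LF.

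The HF samples of batch 2 kept 1 order through the whole set. Replicate 1 was the highest and replicate 3 the lowest of the 3 HF samples for all 10 genes, Ier3 included. In the other groups no sample was highest or lowest for more than 8 of the 10 genes. HF replicates 1, 2 and 3 of batch 2 had 45973207, 39781396 and 65320947 counts. Their smooth muscle markers summed to 4.68, 0.858 and 3.26 CPM and their fibroblast markers to 16.0, 4.29 and 10.6 CPM, with replicate 2 the lowest. The part of depth and of these markers in the order was not tested.

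The number of calls, among the 10 and over all genes, changed when single samples were left out, while the directions of the 7 called genes did not. Without HF replicate 2 or without HF replicate 3, edgeR's test called 0 of the 10 genes lower, while 7 had an unadjusted p under 0.05 each time. The calls over all genes then fell to 11 and 27 lower. Without LF replicate 1, 2 or 3 the members called lower were 2, 4 and 3, with 39, 220 and 35 genes called lower in all. Without HFLF replicate 2, 3, 4 or 5 there were 6, with Btg2 lost, and without LF replicate 4, HFLF replicate 1 or HF replicate 1 there were 7. The calls over all genes were 1407 lower without LF replicate 4 and 416 without HFLF replicate 5. Plk2 and Plk3 were called in every fit but those without HF replicate 2 or HF replicate 3. In all 12 of these fits the log2 fold changes of the 7 called genes stayed negative, from -1.58 to -0.27. DESeq2 called 7 of the 10 lower and limma voom with sample weights 8, Csrnp1 included (log2 fold change -0.58, adjusted p = 0.0359). Btg2 did not pass without the filter on low counts (adjusted p = 0.0539) or with the LF and HF samples alone (adjusted p = 0.0614).

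Markers of other cell types moved with the HF group in batch 2, where 4.4% of all genes were called lower and 3.03% higher. The summed level of 6 smooth muscle markers was 5.86 to 31.0 CPM in LF and 0.858 to 4.68 CPM in HF samples, without overlap, with all 6 genes lower and 1 of them, Actg2, called. The 6 fibroblast markers summed to 9.29 to 33.4 CPM in LF and 4.29 to 16.0 CPM in HF samples, with all 6 lower and none called. The 5 enteroendocrine markers summed to 258 to 349 CPM in LF and 368 to 380.2 CPM in HF samples, with 4 higher and Gcg and Pyy called. Of 8 goblet markers 6 were higher and 2 lower, with Spink4 and Tff3 called. Their sums overlapped, at 36526 to 42928 CPM in LF and 32081 to 45873 CPM in HF samples. Of the stem and crypt base markers Smoc2 was called higher and Axin2 lower. The part of these changes in the result for the rapid response genes was not tested.

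After the return to the low-fat diet, 8 of the 10 genes were called higher than in HF mice of batch 2, beside 8.89% of all genes called higher and 5.61% called lower. These were the 7 genes above and Csrnp1. For Plk2, Plk3, Sik1, Ier2 and Btg2, 5 of the 10, every HFLF sample lay above every HF sample, as for 14.6% of all genes. An unadjusted p under 0.05 was found for 8 of the 10 and for 38.2% of all genes. The log2 fold changes ran from 0.37 for Plk2 to 0.87 for Sik1, and the median of the 10 was 0.45, beside 0.012 over all genes. This comparison shares its HF samples with the comparison above, and the fall against LF and the rise here are not separate evidence.

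Sik1, Arc and Plk3 rose by the most. Sik1 had 71.2, 61.9, 65.9, 67.6 and 48.3 CPM in HFLF samples, all above the HF samples, of which the highest had 43.8 CPM. Its log2 fold change was 0.87 (standard error 0.16, adjusted p = 0.0123). Plk3 had 122, 107, 107, 96 and 102 CPM in HFLF samples, and the lowest of these was above the highest HF sample. The log2 fold change of Plk3 was 0.67 (standard error 0.11, adjusted p = 0.00989). Plk2 had 45.7, 42.1, 38.2, 50.0 and 43.4 CPM, again all above HF, with a rise of 0.37 on the log2 scale (standard error 0.080, adjusted p = 0.0144).

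The more abundant Ier2, Btg2 and Zfp36 had smaller changes than Sik1 and Plk3. Ier2 had 366, 374, 383, 397 and 326 CPM in HFLF samples and Btg2 had 978, 912, 958, 994 and 822 CPM, in both cases without overlap with HF. Zfp36 had 333, 318, 341, 351 and 279 CPM, and its lowest HFLF sample, replicate 5, lay below the highest HF sample. The log2 fold changes were 0.47 for Ier2 (adjusted p = 0.0145), 0.43 for Btg2 (adjusted p = 0.0182) and 0.38 for Zfp36 (adjusted p = 0.0255). The spread was wider for Arc, with 44.9, 33.8, 44.8, 35.8 and 27.3 CPM, and for Csrnp1, with 50.7, 46.2, 42.7, 37.2 and 33 CPM, and both overlapped HF through HF replicate 1. Arc rose by 0.84 on the log2 scale (standard error 0.27, adjusted p = 0.0418) and Csrnp1 by 0.52 (standard error 0.17, adjusted p = 0.0474). Ier5, at 35.8 to 51.8 CPM, and Ier3, at 5.84 to 8.99 CPM, overlapped HF, with log2 fold changes of 0.022 (95% interval -0.20 to 0.25) and -0.20 (95% interval -0.58 to 0.17).

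Without HF replicate 2 edgeR's test called 0 of the 10 genes between HFLF and HF, with 8 at an unadjusted p under 0.05, and 9 genes higher in all. Without HF replicate 3 it called Plk2, Plk3 and Sik1. Without HFLF replicate 1 or HFLF replicate 4 it called 5, losing Csrnp1, Arc and Zfp36. Csrnp1 was also lost without HFLF replicate 2 or 3 and without LF replicate 1 or 3, and Arc without HFLF replicate 3 and without LF replicate 2. Csrnp1 did not pass with the HFLF and HF samples alone either (adjusted p = 0.0524). The 8 genes kept a positive log2 fold change in all 12 fits, and DESeq2 and limma voom each called 8. Smooth muscle markers summed to 1.84 to 15.3 CPM in HFLF samples, overlapping HF, with all 6 genes higher and 0 called. The 6 fibroblast markers summed to 7.07 to 23.1 CPM, also overlapping HF, with all 6 higher and 0 called. Enteroendocrine markers summed to 257 to 339.7 CPM, all below HF, with Gcg and Pyy called lower. Of 8 goblet markers 5 were lower and 3 higher, with Agr2 and Tff3 called lower. The goblet sums, 31425 to 48654 CPM in HFLF samples, overlapped those of HF. The crypt base marker Smoc2 was called lower and Axin2 higher. Of 4 T cell markers tested all had positive log2 fold changes, with Cd3e called, and so had both endothelial markers tested, with Vwf called. Over all genes, 8.89% were called higher and 5.61% lower in this comparison. The part of these markers in the result was not tested.

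Against LF mice, no rapid response gene of the HFLF mice of batch 2 passed. edgeR's test called 0 of the 10 and 0.00696% of all genes lower, 1 gene, with 0 higher, and DESeq2 and limma voom also called 0 of the 10. Only Ier5 had an unadjusted p under 0.05 (log2 fold change -0.26), with an adjusted p of 0.9996 in edgeR's quasi-likelihood test, beside 4.65% of all genes. The log2 fold changes ran from -0.28 for Arc to 0.082 for Csrnp1, with a median of -0.056, and the groups overlapped for all 10 genes, while they did not for 1.29% of all genes. The 95% intervals bound what could have been missed. They reached from -0.20 to 0.22 for Plk3, from -0.30 to 0.0066 for Plk2 and from -0.23 to 0.37 for Sik1, and at the widest from -0.79 to 0.22 for Arc. The interval of Ier5 lay wholly below 0, from -0.47 to -0.059, so that this gene had similar means in HFLF (43.2 ± 5.92 CPM, SD, n = 5) and HF mice (42.6 ± 4.74 CPM, SD, n = 3) and a higher one in LF mice (51.9 ± 4.50 CPM, SD, n = 4).

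**Figure D2:**
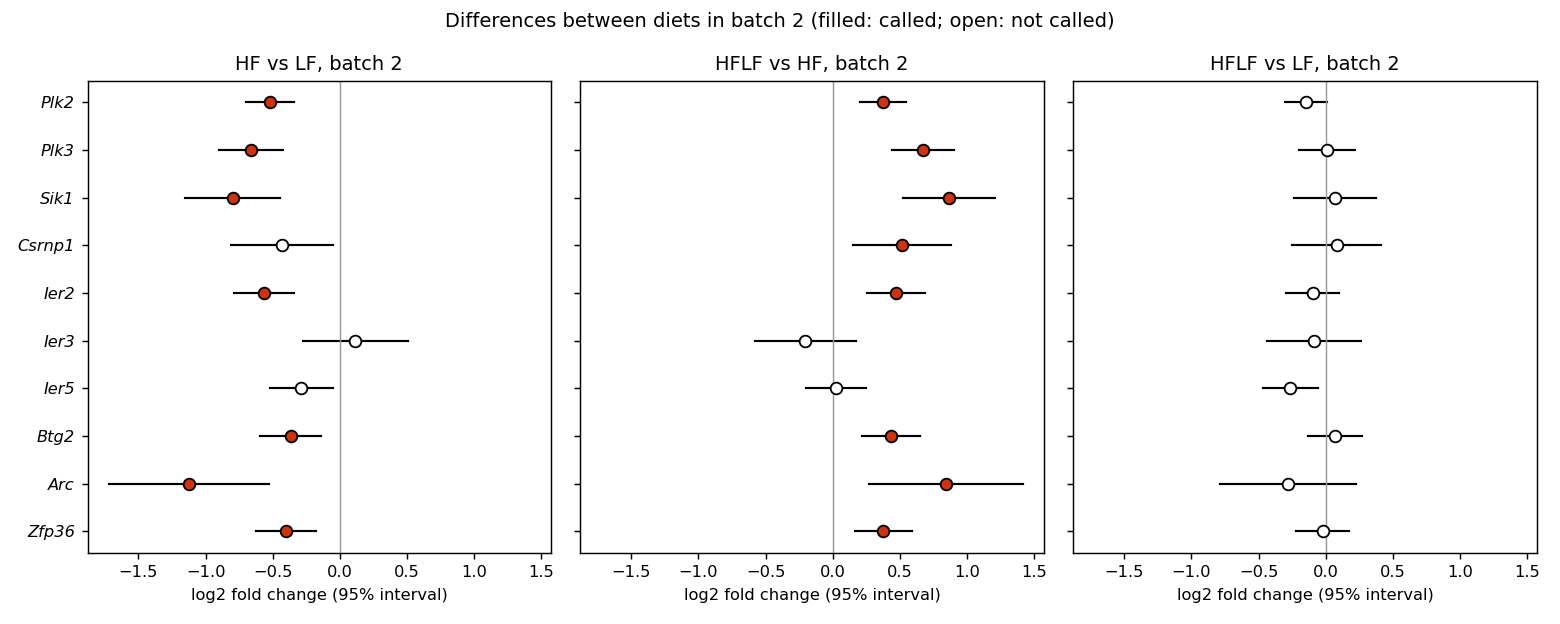
The 3 panels plot the log2 fold change of each gene in batch 2 for HF vs LF, HFLF vs HF and HFLF vs LF, with bars for the 95% interval from edgeR's fit and filled points for genes called. The left panel has 7 filled points below 0, the middle panel 8 above 0 and the right panel none.

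In batch 1, whose mice gave the study its list, the same genes are described without a test. The HF mean was below the LF mean for all 10, with a median of -0.72 on the log2 scale and a range from -1.30 for Arc to -0.24 for Ier5. The HF and LF samples did not overlap for 9 of the 10, all but Ier5, as for 7.33% of all genes. No gene of the 14428 tested in that batch was called lower (0%) by edgeR's test, while 22.2% had an unadjusted p under 0.05, and the smallest adjusted p over all genes was 0.0546. The biological coefficient of variation was 0.158 in batch 1 and 0.102 in batch 2.

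Among the kinases of batch 1, Plk3 had 150.1, 169.6, 199 and 133 CPM in LF and 75.6, 91.9 and 77.3 CPM in HF samples, and Sik1 had 67.4, 104, 92.7 and 70.7 CPM in LF and 35.6, 49.1 and 24.5 CPM in HF samples. Their log2 fold changes were -0.997 (standard error 0.16) and -1.21 (standard error 0.24), while that of Plk2 was -0.64 (standard error 0.13). Csrnp1 had 36, 45.8, 35.3 and 28.8 CPM in LF and 20.4, 21.4 and 11 CPM in HF samples of batch 1. HF replicate 3 was far below the other two for Csrnp1, and it was likewise the lowest HF sample for 6 of the 10 genes. Its marker sums stood apart too, with 0.541 CPM for smooth muscle against 10.0 and 9.51 CPM in HF replicates 1 and 2, 2.88 against 21.2 and 28.9 CPM for fibroblasts, 6.65 against 11.9 and 13.9 CPM for endothelium and 19547 against 26216 and 27316 CPM for goblet cells. The part of this in its levels was not tested. The log2 fold change of Csrnp1 in batch 1, -1.05 (standard error 0.21), stood beside -0.43 in batch 2. Arc had 18.4, 31.9, 30.2 and 25.1 CPM in LF and 9.02, 11.1 and 12.1 CPM in HF samples, and these did not meet. Ier2 (-0.78), Btg2 (-0.66) and Zfp36 (-0.60) had intermediate log2 fold changes. Ier3 had 6.32 to 7.46 CPM in LF and 5.68 to 6.06 CPM in HF samples, and its log2 fold change of -0.26 was of the opposite sign to that in batch 2.

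The HFLF mice of batch 1 lay between the other groups for most of the genes. Against LF the median log2 fold change was -0.38, with Ier3 alone higher, and against HF it was 0.35, with Ier5 alone lower. Samples did not overlap for 6 of the 10 genes against LF, all lower, beside 1.56% of all genes, and for Csrnp1 and Ier3 against HF, 2 of the 10, beside 3.95%. Plk3 had 163 ± 28.1 CPM (SD, n = 4) in LF, 106 ± 18 CPM (SD, n = 4) in HFLF and 81.6 ± 8.95 CPM (SD, n = 3) in HF mice. In batch 2 the HFLF mean of Plk3, 107 ± 9.74 CPM (SD, n = 5), was level with the LF mean of 106 ± 4.74 CPM (SD, n = 4). Arc of batch 1 had 11.8, 23.4, 9.96 and 8.63 CPM in HFLF samples, of which replicate 2 lay in the LF range and the other 3 in or near the HF range. The difference between batches in the position of HFLF was not tested, since the batch 1 contrasts were used in the choice of genes. HFLF replicate 2 also had the most smooth muscle RNA of that batch, with 50.2 CPM over the 6 markers against 2.51 to 24.2 CPM in the other HFLF samples, and the part of this in its levels was not tested.

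Levels in the LF mice differed between the batches for some of the genes. On 1 scale over both batches, Zfp36 was 2.01 times, Arc 1.70 times, Ier2 1.42 times and Btg2 1.31 times as high in LF mice of batch 2 as in those of batch 1, and Plk3 was 0.647 and Sik1 0.71 times as high. For Zfp36, Ier2, Btg2 and Plk3, 4 of the 10, the LF samples of the batches did not overlap, beside 27.4% of 12418 genes of at least 1 CPM. The remaining 4 genes had ratios between 0.953 and 1.16. What the batches differ in is not given in the sources used here, and diets were compared within batches.

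Within a diet and batch, 8 of the genes varied together. After the mean of each diet and batch group was removed, the 45 pairs of the 10 genes had a median Pearson correlation of 0.40 (Spearman 0.39) over 23 samples, with 38 positive. That median was 0.28 in batch 1, with 29 of 45 positive, and 0.63 in batch 2, with 43 positive. Without Ier3 and Ier5, left out after the values were seen, the 28 pairs among Plk2, Plk3, Sik1, Csrnp1, Ier2, Btg2, Arc and Zfp36 had a median Pearson correlation of 0.62 (Spearman 0.63) over 23 samples, and all 28 were positive. Their median was 0.59 over the 11 samples of batch 1, with 27 positive, and 0.76 over the 12 of batch 2, with 28 positive. Btg2 with Zfp36 (0.91), Sik1 with Csrnp1 (0.82) and Ier2 with Btg2 (0.80) were the closest pairs. Ier3 and Ier5 stood apart, with a median correlation to the other members of 0.11 and 0.072, and Plk2 with Ier5 had the lowest value of any pair, -0.42. The points share library depth, normalization and the removed group means, so these are descriptions and carry no p.

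**Figure D3:**
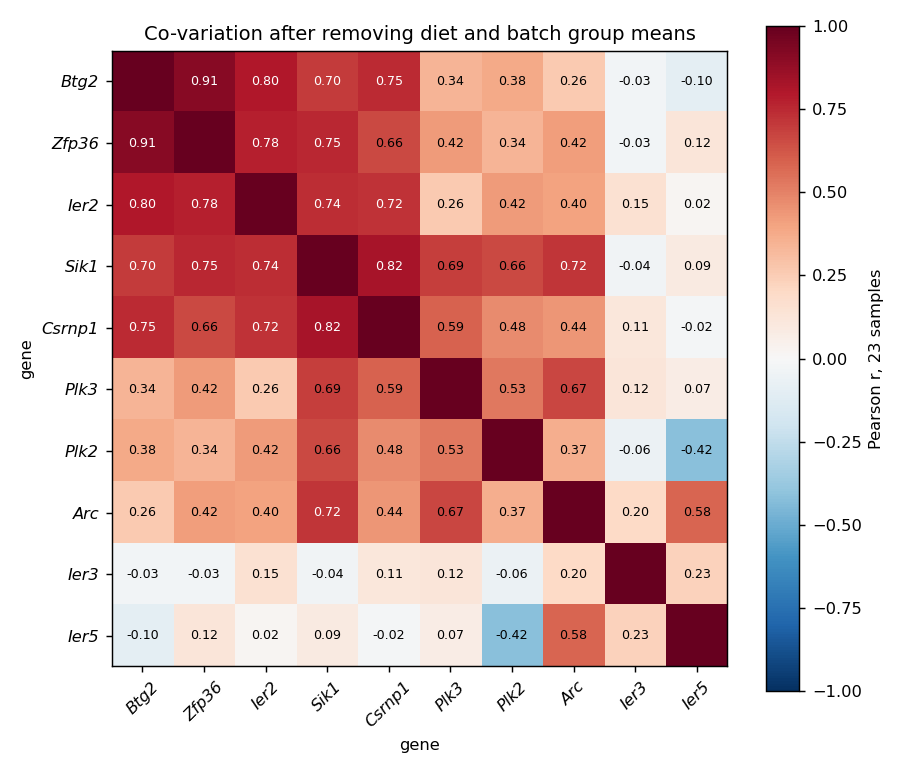
The colour and the number in each cell give the Pearson correlation of 2 genes over 23 samples, on log2 CPM less the mean of each diet and batch group. The block of Btg2, Zfp36, Ier2, Sik1 and Csrnp1 runs from 0.66 to 0.91, and the rows of Ier3 and Ier5 lie between -0.097 and 0.23 apart from Arc with Ier5 (0.58) and Plk2 with Ier5 (-0.42).

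Of 12408 genes with a mean of at least 1 CPM, those most like the mean of the members were led by early response genes. The highest correlations were those of Cyr61 (0.920), a matricellular protein gene, of the nuclear receptors Nr4a1 (0.896) and Nr4a2 (0.859), of the transcription factors Atf3 (0.888), Egr3 (0.887) and Fos (0.836), of Ppp1r15a (0.878), a phosphatase subunit of the stress response, of Grasp (0.868) and of the growth factor Hbegf (0.858). Each of these 9 was at least 0.814 within either batch. These values say how alike the profiles were over 23 samples and nothing of shared control.

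The spread of single genes was uneven. Arc had an SD of 0.45 on the log2 scale around its group means in both batches, at the 94.6 percentile of 12418 genes in batch 1 and the 98.6 percentile in batch 2. Sik1 stood at the 90.0 and 90.1 percentiles and Csrnp1 at the 84.8 and 92.3 percentiles. Plk2 was steadier, at the 46.1 and 43.7 percentiles.

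The paralogs of the 10 genes, which share their families but are not all rapidly induced, were followed from a list of 16. Of these, 12 passed the filter in batch 2, and 10 of the 12 had negative log2 fold changes between HF and LF mice. In edgeR's test 3 were called lower, beside 4.4% of all genes, and 0 higher, beside 3.03%. Their median on the log2 scale was -0.24, beside -0.013 over all genes tested. Among the Polo-like kinases, the cell cycle kinases Plk1 (0.11, standard error 0.19, adjusted p = 0.716) and Plk4 (0.13, standard error 0.11, adjusted p = 0.392) had small positive log2 fold changes and Plk5, at under 1 CPM, had one of -0.79 (standard error 0.34, adjusted p = 0.130). The 95% interval of Plk1 ran from -0.30 to 0.51 and that of Plk4 from -0.094 to 0.36. Sik3 fell with Sik1 (-0.36, standard error 0.085, adjusted p = 0.0310), and Sik2 had -0.22 (standard error 0.099, adjusted p = 0.139). Of the tristetraprolin family, the 3 genes with counts all fell. Zfp36l1 went from 49.3 CPM in LF to 31.6 CPM in HF mice (-0.64, standard error 0.10, adjusted p = 0.00964 on the log2 scale), and Zfp36l2 had -0.44 (standard error 0.089, adjusted p = 0.0242).

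In the BTG and TOB family the antiproliferative relatives of Btg2 did not pass, with log2 fold changes of -0.065 (standard error 0.089, adjusted p = 0.632) for Btg1, -0.26 (standard error 0.088, adjusted p = 0.0681) for Tob1 and -0.34 (standard error 0.10, adjusted p = 0.0522) for Tob2. Csrnp2 (-0.10, standard error 0.11, adjusted p = 0.548) and Ier5l (-0.15, standard error 0.29, adjusted p = 0.736) did not pass either. Btg4 and Zfp36l3 had 0 counts in all 23 samples, and Csrnp3 and Btg3 had 12 and 5 counts in all. Between HFLF and HF mice, 2 of the 12 were called higher, beside 8.89% of all genes. These were Sik3 (0.37, standard error 0.081, adjusted p = 0.0147) and Zfp36l1 (0.50, standard error 0.096, adjusted p = 0.0131). Zfp36l2 had 0.22 (standard error 0.085, adjusted p = 0.0790) there. Tob1 had an adjusted p of 0.0457 in that comparison, with a log2 fold change of 0.26 that stayed under the fold of 1.2. In batch 1 the log2 fold changes of the 12 between HF and LF had a median of -0.41, with Plk1 and Plk4 again the 2 positive ones.

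**Figure D4:**
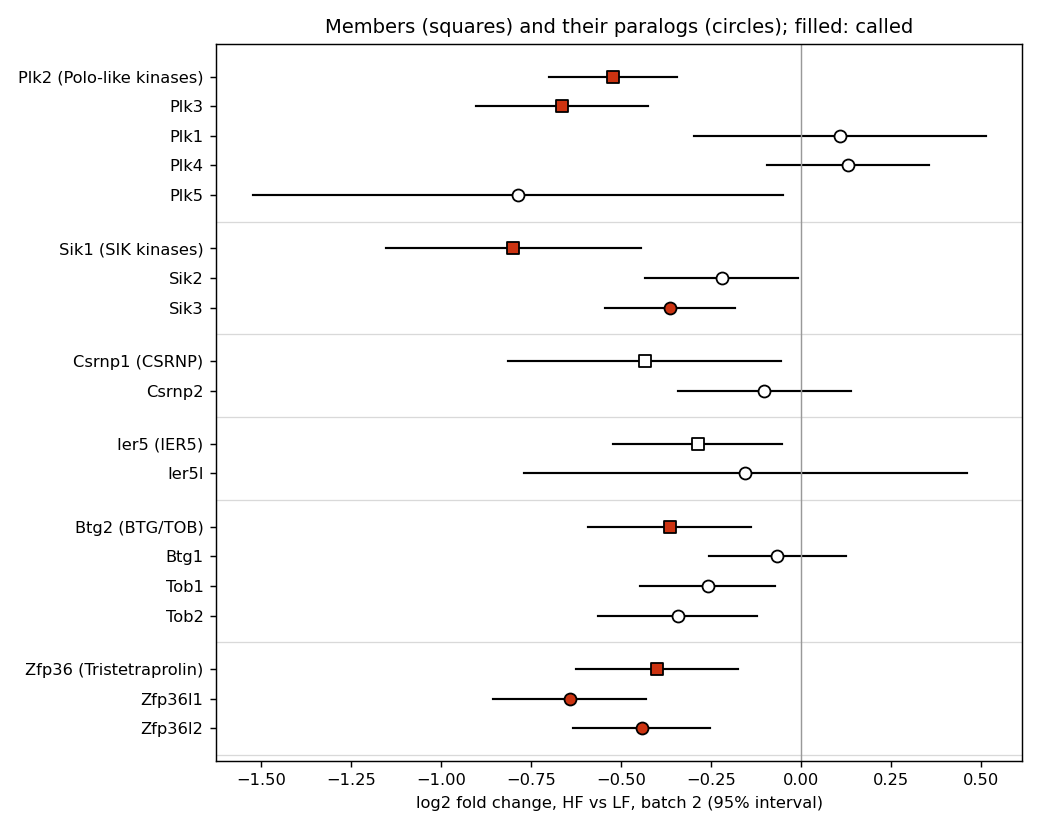
The log2 fold change between HF and LF mice of batch 2 is plotted for members (squares) and paralogs (circles) by family, with the 95% interval from edgeR's fit and filled symbols for genes called. All 3 tristetraprolin genes are filled and negative, while Plk1 and Plk4 lie at 0.11 and 0.13 beside Plk2 and Plk3 at -0.52 and -0.66.

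Genes of the pathways around the 10 were counted in batch 2, with 4.4% of all genes called lower and 3.03% higher for comparison. Of 17 genes tested around LKB1, the SIK kinases and the CRTC coactivators, 4 were called lower in HF mice and 0 higher, with a median of -0.20. These were Hdac5 (-0.55, standard error 0.083, adjusted p = 0.00878) and Hdac7 (-0.46, standard error 0.12, adjusted p = 0.0373), class IIa deacetylases, and the CREB coactivators Crtc1 (-0.46, standard error 0.12, adjusted p = 0.0382) and Crtc2 (-0.42, standard error 0.093, adjusted p = 0.0280). Of the 17, 6 were called higher in HFLF than in HF mice, beside 8.89% of all genes, Hdac5 by 0.57 and Crtc2 by 0.43 on the log2 scale. The list for CCR4-NOT, the deadenylase used by Btg2 and Zfp36, had 12 genes tested, among them Pabpc1, which is not a subunit. Of these 12, 1 was called lower and 0 higher, Cnot3 (-0.32, standard error 0.093, adjusted p = 0.0462), and the median was -0.083. Of 7 tested mRNAs with AU-rich elements that tristetraprolin binds, 1 was called lower, the kinase gene Pim1 (-0.50, standard error 0.091, adjusted p = 0.0175), and 0 higher. The median of these 7 was -0.14, while 8 more of the 15 listed mRNAs did not pass the filter on low counts.

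Of 16 p53 targets, 2 were called lower, beside 4.4% of all genes, and 0 higher, beside 3.03%, with a median of -0.027. They were Gdf15, a stress-induced cytokine (-1.06, standard error 0.20, adjusted p = 0.0189), and Bbc3, the pro-apoptotic PUMA (-0.76, standard error 0.13, adjusted p = 0.0137). Between HFLF and HF mice, 1 of the 16 was called higher, Bbc3 (0.55 on the log2 scale), beside 8.89% of all genes. The 1 called lower was Ccng1, named after its values were seen (-0.33), beside 5.61% of all genes. Of 33 other early response genes outside the Fos, Egr, Nr4a, Klf and Dusp families, 8 were called lower in HF mice, beside 4.4% of all genes. Pim1 is counted here again. Of these 33, 0 were called higher, beside 3.03%, and 24 were negative, with a median of -0.27. The largest log2 fold changes among the called were those of Cyr61 (-1.38, standard error 0.34, adjusted p = 0.0363), of the YAP target Amotl2 (-0.62, standard error 0.14, adjusted p = 0.0310), of Ppp1r15a (-0.61, standard error 0.17, adjusted p = 0.0425) and of the histone demethylase gene Kdm6b (-0.55, standard error 0.14, adjusted p = 0.0373). Between HFLF and HF mice 10 of the 33 were called higher, beside 8.89% of all genes, and 1 lower, beside 5.61%, the kinase gene Sgk1, named after its values were seen (-0.78). In batch 1, which is description only, the HF mean was below the LF mean for 27 of the 33, with a median of -0.48.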

How the data were processed

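RNA of colonic epithelium was sequenced from stranded, ribosome-depleted libraries. According to the submitters' processing notes and the study's methods, the authors trimmed reads with cutadapt 1.2.1, aligned them to mm10 with STAR 2.5 and counted them per gene with featureCounts 1.5.0-p1 of Subread. The deposited values are raw read counts, and the strand and multi-mapping settings are not given in the sources used here. Depth was 29189922 to 65320947 counts per sample.

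Each batch was fitted separately with edgeR 4.0.16 (R 4.3.3), with TMM scaling, the default expression filter and the 3 diets in 1 quasi-likelihood model. Called means a p under 0.05 after adjustment by the method of Benjamini and Hochberg, together with a fold over 1.2, the thresholds of the study, which used DESeq2. Intervals and standard errors come from the same fit. Alternatives used DESeq2 1.42.0, limma 3.58.1 (voom with sample weights), other scaling and filters, both batches with a batch term, a replicate block and leaving out each sample. Co-variation used log2 CPM with a prior count of 2. Scripts were tested on simulated data with 200 changed genes.

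Members, gene lists and tests were chosen with earlier results of these data known. All members and paralogs with counts are named, up to 4 called genes of each other list, and the 10 genes most like the members, of which 1 is not reported here. Promoters are RefSeq sequences of GRCm38.p6. No pair of samples of the same diet agreed within sampling noise, and pairs of different diets were not compared in this way.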

Additional observations from a re-analysis of the deposited data

Results flagged for a closer look

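For Sik1, HFLF replicate 2 of batch 1 stood far above the other HFLF samples of that batch, with 78.5 CPM against 47.4 to 50.1 CPM in the other 3 (n = 4), the gap taking 0.913 of the group's range. Of 40 groups of 4 or 5 samples tested in this way (10 genes, 4 groups each), 1 was singled out, and chance alone singles out about 1 in 20. The same sample had the highest HFLF level of batch 1 for 8 of the 10 genes. The cause was not tested.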

How the results depend on the processing

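The calls of batch 2 depended on the tool and on single samples more than the estimates did. Between HF and LF, 436 genes were called higher and 633 lower. DESeq2 called 834 and 1021, limma voom 844 and 1147, both batches together 1294 and 1311, and leaving out 1 sample gave 4 to 1153 higher and 11 to 1407 lower, with 0 to 7 members called lower. Between HFLF and HF (1278 higher, 806 lower), both batches together called 783 higher, no fold threshold 1226 lower, and leaving out 1 sample gave 9 to 1425 higher and 2 to 1353 lower, with 0 to 8 members called higher. Between HFLF and LF (0 higher, 1 lower), DESeq2 called 4 higher and 11 lower, limma voom and both batches together 0 lower, and leaving out 1 sample 0 to 2 lower. Same-numbered samples of a batch had a median correlation of 0.13 in batch 1 and 0.084 in batch 2. Other-numbered samples had -0.034 and -0.013. The same-numbered values ran from -0.51 to 0.50 in batch 1 and from -0.18 to 0.52 in batch 2. Whether replicate numbers pair samples was therefore not settled, and the main fits carry no block. With the replicate block 892 genes were called higher and 1188 lower between HF and LF, Csrnp1 (-0.53, adjusted p = 0.0130) and Ier5 (-0.32, adjusted p = 0.0458) among the lower, 1256 lower between HFLF and HF, and 0 lower between HFLF and LF. Both batches together hold the mice of the study's list, so for the members this fit is description only and its threshold is no test. In that fit Csrnp1 (-0.73) and Ier5 (-0.26) came past the threshold between HF and LF. Arc (0.62) dropped out between HFLF and HF.

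Of the values of single members under these alternatives, 514 kept their direction and their side of the threshold, 59 lost a call, 5 gained one and 22 turned sign. None of the log2 fold changes that turned sign had been called. The largest after turning was -0.29, for Plk3 between HFLF and LF with both batches. Between HF and LF, Ier3 was -0.052 with both batches and -0.076 to 0.31 with 1 sample left out. Between HFLF and HF, Ier3 was 0.086 and Ier5 -0.016 with both batches, and Ier5 ran from -0.064 to 0.10 with 1 sample left out. Between HFLF and LF, both batches together gave Btg2 -0.13, Csrnp1 -0.090, Ier3 0.034, Plk3 -0.29 and Sik1 -0.24, limma voom gave Csrnp1 -0.014 and Plk3 -0.023, and the replicate block gave Zfp36 0.030. With 1 sample left out, Csrnp1 ran from -0.0069 to 0.20, Plk3 from -0.043 to 0.046, Sik1 from -0.019 to 0.15 and Zfp36 from -0.065 to 0.028. The cause was not tested.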
